A study of Mus musculus with 6 samples.

Results

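The cytosolic ribosomal protein genes are described here in livers of mice read as knockout and wildtype for alkaline sphingomyelinase. They were taken by symbol from a table of 23415 genes: every name made of Rpl or Rps and a number, with or without the endings a, x, l or l1, and the names Rplp0, Rplp1, Rplp2 and Rpsa. Pseudogene rows and the kinases of ribosomal protein S6 were left out. The rule found 82 genes, 51 of the large and 31 of the small subunit, and it used no measured value.

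RNA came from the tissue labelled liver of 3 mice whose sample names start with K (animals 82, 84 and 85) and 3 whose names start with W (animals 81, 83 and 90). All are of strain C57BL/6. The letters were read as alk-SMase knockout and wildtype, and the labels give no age, sex, treatment or kind of knockout. The tissue and strain are shared by both groups, while the design text names intestine as the tissue. The hepatocyte markers described below summed to 57860 FPKM in knockout and 55530 FPKM in wildtype samples. The intestinal markers summed to 185 FPKM in knockout and 184 FPKM in wildtype samples. Alkaline sphingomyelinase is the intestinal enzyme encoded by Enpp7. That gene was at 0.141 FPKM in knockout livers and 0.0541 FPKM in wildtype livers, untested by the authors, so it does not check the labels.

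The ribosome is built from RNA and about as many copies of each protein as there are ribosomes, so its protein genes are transcribed at a high and broadly matched rate in every cell. In liver they feed a large output of plasma proteins. Their mRNAs start with a run of pyrimidines, the TOP element, through which mTORC1 and the protein LARP1 set how much of the mRNA is translated. A level of mRNA is therefore not a measure of ribosomal protein made.

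The deposited table gives a single expression value per group, read as FPKM (fragments per length of transcript and per depth of sequencing), and none per mouse. Each ratio is log2 of knockout over wildtype, and its standard error (SE) is the one that the authors' test statistic implies. It is not an observed spread between mice. A gene counts as changed when the authors' q, their p adjusted over all 11515 genes tested, is under 0.05. Read totals are unknown, so no counting interval can be given. In bulk tissue, fewer cells of a type and less RNA per cell cannot be told apart.

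Promoters of 6 members are shown first, because they belong to the genes at either end of the results: the 3 with the highest ratios for which a start within 5 bases of the deposited gene's edge was found (and an SE of at most 1), the 2 with the lowest, and the most abundant small subunit gene among those matched. Rpl41 is also the most abundant large subunit gene among them. RefSeq promoters of build GRCm38.p6 were matched by symbol for 62 of the 82 members. Each line runs 5′ to 3′ from 100 bases before the annotated start to the 20th base after it. Capitals mark, on either strand, CCGGAAG, a motif bound by ETS factors. They also mark AAGATGG for the factor YY1 and GGGCGG for the GC box of SP1. The last of the marked motifs are TATAAA, known as the TATA box, and TGACG, a core of the cyclic AMP response element. Any run of 6 or more pyrimidines on the transcribed strand within 20 bases of the start is in capitals as well.
Rpl41 (chr10:128549149-128549268, minus strand): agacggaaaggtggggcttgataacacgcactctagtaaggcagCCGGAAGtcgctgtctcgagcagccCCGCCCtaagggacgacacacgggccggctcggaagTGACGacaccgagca
Rps21 (chr2:180257279-180257398, plus strand): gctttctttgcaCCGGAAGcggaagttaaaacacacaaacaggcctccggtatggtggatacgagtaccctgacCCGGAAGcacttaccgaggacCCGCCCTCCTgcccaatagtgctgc
Rps16 (chr7:28350589-28350708, plus strand): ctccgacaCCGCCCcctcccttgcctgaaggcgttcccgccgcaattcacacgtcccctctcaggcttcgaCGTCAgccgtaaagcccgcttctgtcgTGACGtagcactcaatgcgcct
Rpl22l1 (chr3:28805408-28805527, plus strand): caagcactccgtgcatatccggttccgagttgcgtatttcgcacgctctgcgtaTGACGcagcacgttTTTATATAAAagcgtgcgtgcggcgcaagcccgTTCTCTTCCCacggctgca
Rpl14 (chr9:120571417-120571536, plus strand): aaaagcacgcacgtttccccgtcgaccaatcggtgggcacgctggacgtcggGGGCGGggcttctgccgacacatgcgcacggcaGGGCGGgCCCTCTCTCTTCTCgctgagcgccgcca
Rps2 (chr17:24719963-24720082, plus strand): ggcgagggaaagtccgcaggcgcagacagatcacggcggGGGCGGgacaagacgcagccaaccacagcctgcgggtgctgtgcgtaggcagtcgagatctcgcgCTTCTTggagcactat

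Among these sequences CCGGAAG is in those of Rpl41 and Rps21 and not in that of Rps16, the other one shown for a high ratio. TATAAA is in that of Rpl22l1 and not in that of Rpl14, the other one shown for a low ratio. Some of the marked letters run together, as where a GC box on the minus strand meets the pyrimidine run of Rps21. Over the whole 300-base windows, from 250 bases before to 50 after the start, CCGGAAG was found in 35.1% of the 74 promoters of members and in 8.9% of 32851 promoters of all genes. The GC box was in 59.5% of the members' promoters and 35.7% of all, TGACG in 43.2% of the members' and 20.8% of all, AAGATGG in 16.2% of the members' and 6.3% of all, and TATAAA in 9.5% of the members' and 13.6% of all. A pyrimidine run near the start was in 60.8% of the members' promoters and 37.5% of all. A match is a description of letters and not a site of binding.

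None of the ribosomal protein genes changed by the authors' test. Of 79 tested members, 0 passed in either direction, where 1.08% of all tested genes did (0.573% as higher and 0.504% as lower in knockout livers). The smallest absolute log2 ratio of any called gene in the table was 0.78, above that of every member with a small error. At an unadjusted p under 0.05, 2 members were higher and 0 lower, against 2.82% and 2.47% of all tested genes (5.29% in either direction). The share of the 79 members past that mark is therefore not above the background on either side. The 95% interval of the log2 ratio held 0 for 77 of the 79.

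As deposited, the values lay mostly to one side of 0, and the scaling described next shifts them together with all tested genes. Of 79 tested members, 73 had a higher value in knockout livers and 6 a lower one, while 49.9% of all tested genes had a higher value and 50.1% a lower one; the first count is 32 when each group is brought to one total. The median log2 ratio was 0.15 over the members, which is 1.11-fold, and 0.00 (-0.0012) over all tested genes. When the listed FPKM of each group were brought to one total (the same sum), 32 members lay above 0 and 47 below, with a median of -0.04. That scaling moved the median of all tested genes to -0.20. The members' median stood 0.15 above the median of all tested genes as deposited, with the same sum and with upper quartile scaling, and 0.08 above it after quantile normalization. Members share regulation and libraries and are not replicates, so no test was made over them.

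**Figure D1:**
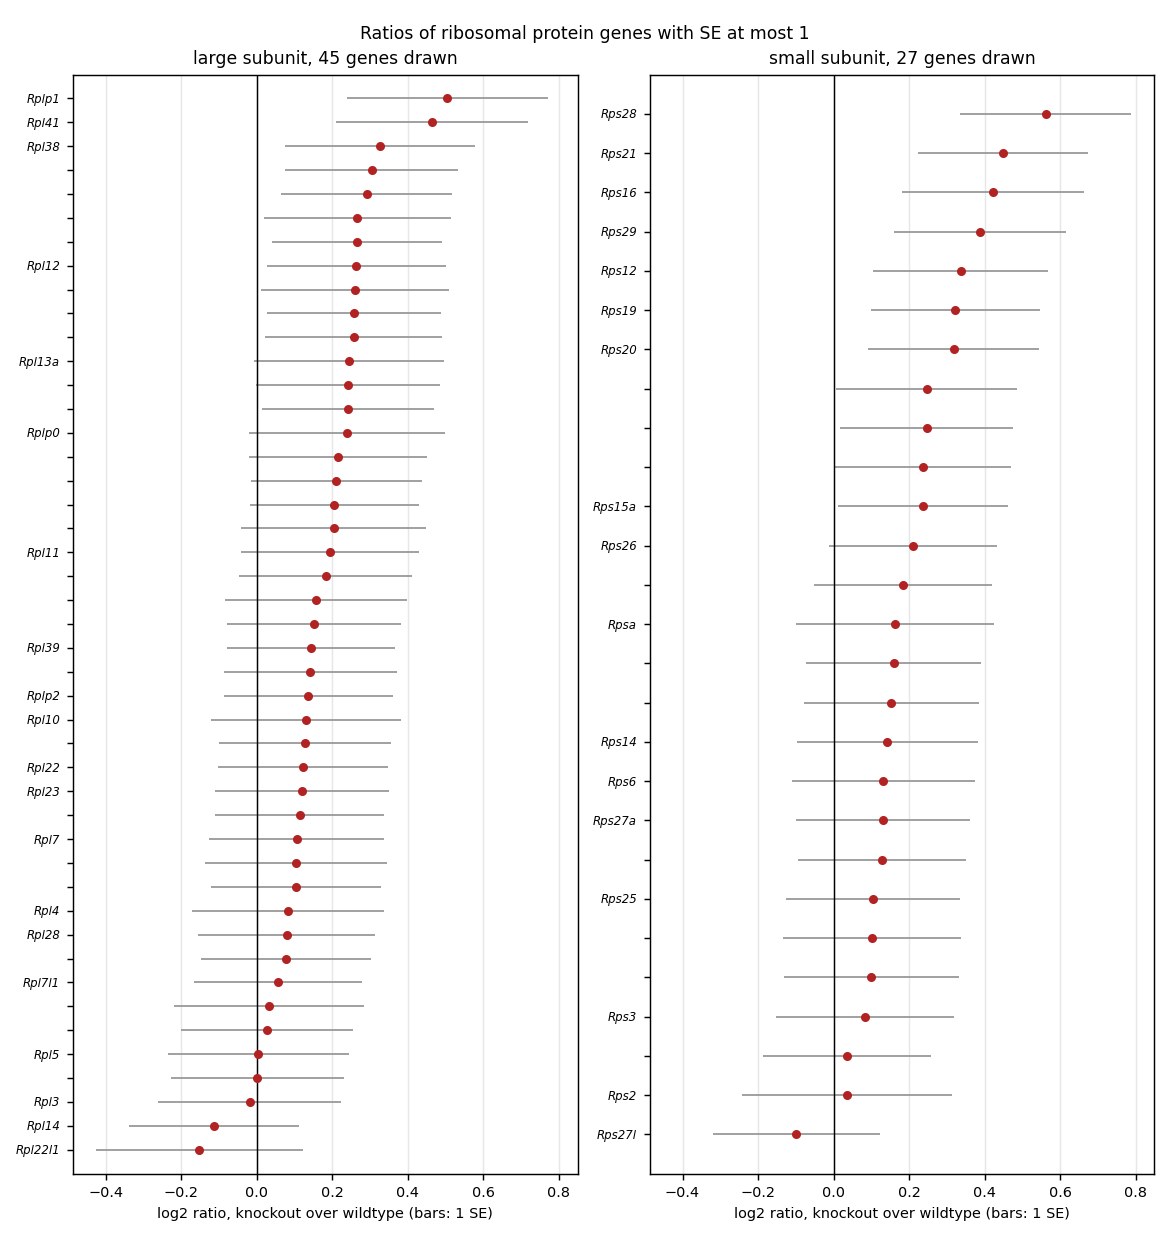
Log2 ratio of knockout over wildtype (horizontal axis) for ribosomal protein genes with an SE of at most 1, large subunit left and small subunit right, bars 1 SE of the authors' model; genes described in the text carry their names. Most points lie to the right of 0, as 69 of the 74 such members do. With the same sum in each group the median of all members is -0.04, and that of all tested genes -0.20. Of the 79 tested members, 77 have a 95% interval that holds 0.

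The subunits are given side by side. The large subunit genes had a median log2 ratio of 0.14 with 44 of 48 tested above 0 (-0.05 with 19 above 0 under the same sum). The small subunit genes had 0.16 with 29 of 31 above 0 (-0.03 with 13). Their summed levels were 23370 FPKM in knockout livers and 19940 FPKM in wildtype livers for the large subunit, and 16160 FPKM in knockout and 13780 FPKM in wildtype livers for the small, a log2 ratio of sums of 0.23 for each. Together the members made up 6.12% of the listed sum in knockout livers and 5.97% of it in wildtype livers. Without the genes that the authors called changed in the denominator, the shares were 6.59% in knockout and 6.07% in wildtype livers. Among the 74 members with an SE of at most 1, the SD of the ratios was 0.13, smaller than the median SE of a single member of 0.23.

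Transcript levels of genes whose proteins are needed in like numbers spread widely. In knockout livers 4 tested members exceeded 1000 FPKM (Rplp1, Rpl41, Rps28 and Rps2) and in wildtype livers 3 did. The median tested member was at 422 FPKM in knockout livers and 392 FPKM in wildtype livers, and 71 of the 79 were above 100 FPKM in both. The order of levels was nearly the same in both groups, with Rplp1 and Rpl41 first and second in each (Spearman's rho 0.991 across 79 genes, which share their libraries and are not independent). Rank 3 was held by Rps28 in knockout livers and by Rps2 in wildtype livers, and without values per mouse it cannot be said whether neighbours in the order differ beyond the spread.

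**Figure D2:**
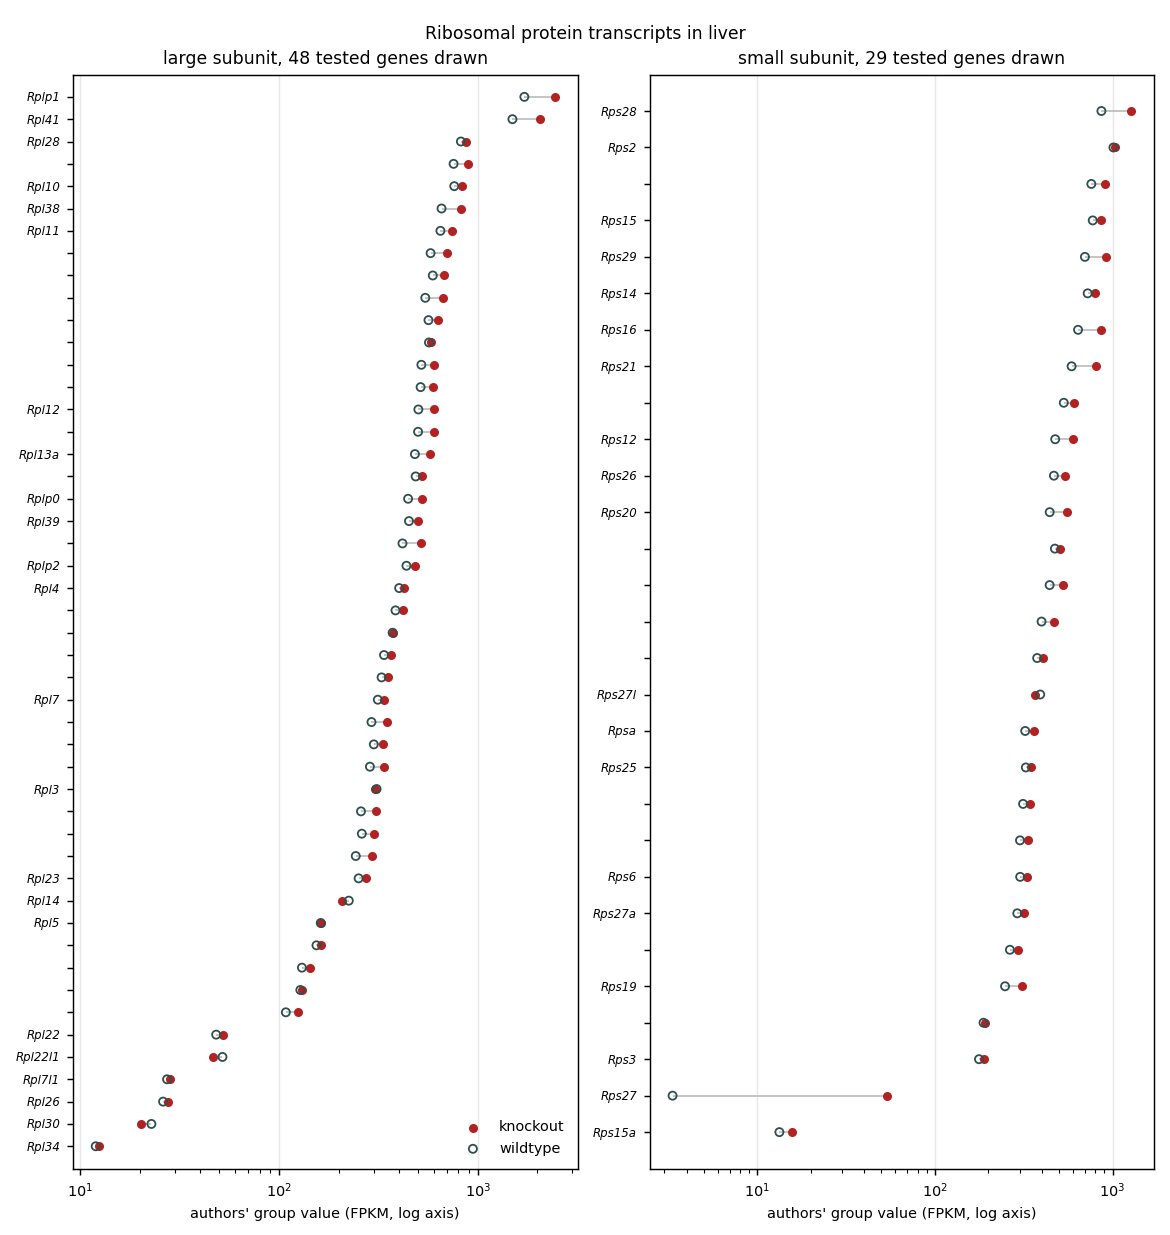
The authors' FPKM value (horizontal log axis) of tested ribosomal protein genes in knockout livers (filled) and wildtype livers (open), large subunit left and small subunit right, ordered by mean level, with names for genes described in the text. Most filled points lie right of open ones, as for 73 of all 79 tested members as deposited. With the same sum in each group 32 members do, and the median log2 ratio of all genes the authors tested is -0.20. Rplp1 is highest, and Rps27 has the widest gap.

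The stalk of the large subunit recruits elongation factors to the ribosome. It is made of Rplp1 and Rplp2, acidic proteins on a base of Rplp0 and Rpl12. Rplp1 (chromosome 9, 61913283 to 61914510, mm10) was the most abundant member, at 2440 FPKM in knockout livers and 1719 FPKM in wildtype livers (log2 ratio 0.51 ± 0.27 SE, p = 0.0587 before adjustment in the authors' deposited table). Its partner Rplp2 was at 482 FPKM in knockout and 438 FPKM in wildtype livers (0.14 ± 0.22). Rplp0, often used as a reference gene, was at 528 FPKM in knockout and 447 FPKM in wildtype livers (0.24 ± 0.26), and Rpl12 at 604 FPKM in knockout and 503 FPKM in wildtype livers (0.26 ± 0.24). All 4 stalk genes were higher in knockout livers and none passed. Of the 4, Rplp2 turned to -0.06 with the same sum in both groups.

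Rpl41, the shortest protein of the ribosome, was second in level at 2065 FPKM in knockout livers and 1497 FPKM in wildtype livers. The ratio was 0.46 ± 0.25 (p = 0.0685 before adjustment in the authors' deposited table). Rpl38, whose loss in mouse embryos impairs the translation of Hox mRNAs, was at 826 FPKM in knockout and 658 FPKM in wildtype livers (0.33 ± 0.25). Rpl13a, part of a complex that silences mRNAs in human myeloid cells, was at 573 FPKM in knockout and 484 FPKM in wildtype livers (0.24 ± 0.25). Rpl10, which joins the large subunit late in its assembly, was at 835 FPKM in knockout and 763 FPKM in wildtype livers (0.13 ± 0.25), and Rpl28 at 871 FPKM in knockout and 824 FPKM in wildtype livers (0.08 ± 0.23).

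Proteins of the core of the large subunit come next. Rpl3, which lies near the centre where peptide bonds form, was at 306 FPKM in knockout livers and 310 FPKM in wildtype livers (-0.02 ± 0.24). Rpl4 and Rpl39 line the exit tunnel of the growing chain. Rpl4 was at 427 FPKM in knockout and 403 FPKM in wildtype livers (0.08 ± 0.26), and Rpl39 at 499 FPKM in knockout and 452 FPKM in wildtype livers (0.14 ± 0.22). Rpl14 was among the few on the other side, at 208 FPKM in knockout and 225 FPKM in wildtype livers (-0.11 ± 0.23). For each of these genes the difference was smaller than its SE.

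Rpl5 and Rpl11 form a particle with the small ribosomal RNA of the large subunit and, when ribosome assembly fails, bind MDM2 and so stabilise p53. Rpl5 was at 163 FPKM in knockout livers and 162 FPKM in wildtype livers (0.00 ± 0.24, with a 95% interval from -0.47 to 0.48). Rpl11 was at 744 FPKM in knockout and 650 FPKM in wildtype livers (0.19 ± 0.24, interval -0.27 to 0.66). Rpl23, another MDM2-binding protein, was at 274 FPKM in knockout and 252 FPKM in wildtype livers (0.12 ± 0.23). The intervals of all of these genes hold 0.

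In the small subunit Rps28 had the largest ratio of any member with a small error. It lies on chromosome 17 at 33823037 to 33824498 (mm10) and its protein sits near the mRNA exit. It stood at 1278 FPKM in knockout livers and 866 FPKM in wildtype livers, which is 1.48-fold (0.56 ± 0.23, p = 0.0132 before adjustment, q = 0.465 in the authors' deposited table). Rps21 (chromosome 2, 180257379 to 180258444) was at 803 FPKM in knockout and 588 FPKM in wildtype livers (0.45 ± 0.23, p = 0.0462, q = 0.913 in the authors' deposited table). These were the 2 members with an unadjusted p under 0.05.

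Next in the small subunit came Rps16, whose tail reaches the decoding site, at 857 FPKM in knockout livers and 640 FPKM in wildtype livers (0.42 ± 0.24). Rps29, a short zinc-binding protein, was at 914 FPKM in knockout and 699 FPKM in wildtype livers (0.39 ± 0.23). Rps12 was at 601 FPKM in knockout and 476 FPKM in wildtype livers (0.34 ± 0.23), and Rps20 at 552 FPKM in knockout and 443 FPKM in wildtype livers (0.32 ± 0.23). Proteins of the mRNA entry channel are given beside them. Rps2 was at 1037 FPKM in knockout and 1012 FPKM in wildtype livers (0.04 ± 0.28) and Rps3, which also acts in DNA repair, at 188 FPKM in knockout and 177 FPKM in wildtype livers (0.08 ± 0.24).

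Rps6, the substrate of S6 kinase downstream of mTORC1, was at 331 FPKM in knockout livers and 302 FPKM in wildtype livers (0.13 ± 0.24). Rps27a, which is made as a fusion with ubiquitin, was at 319 FPKM in knockout and 291 FPKM in wildtype livers (0.13 ± 0.23). Rpsa, also known as a laminin receptor, was at 361 FPKM in knockout and 322 FPKM in wildtype livers (0.16 ± 0.26), and Rps25, used by viral internal ribosome entry sites, at 349 FPKM in knockout and 325 FPKM in wildtype livers (0.10 ± 0.23). These 4 were all below 0 with the same sum in both groups.

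Genes mutated in human Diamond-Blackfan anaemia, an inherited failure of red cell production, formed a list of 19 members. All 19 had a higher value in knockout livers, with a median log2 ratio of 0.21, and 0 passed; under the same sum 10 were above 0 and 9 below. Rps19, the most often mutated of them, was at 311 FPKM in knockout livers and 248 FPKM in wildtype livers (0.32 ± 0.22). Rps26 was at 541 FPKM in knockout and 468 FPKM in wildtype livers (0.21 ± 0.22). Rps14, the gene lost in the human 5q- syndrome, was at 800 FPKM in knockout and 725 FPKM in wildtype livers (0.14 ± 0.24).

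Paralogs of ribosomal proteins known for narrower expression include some near 0. Rpl3l of striated muscle was at 0.0200 FPKM in knockout livers and 0.0721 FPKM in wildtype livers. Rpl39l and Rpl10l, best known from testis, were at 0.0329 FPKM in knockout and 0.0492 FPKM in wildtype livers, and at 0.0242 FPKM in knockout livers and a listed 0 in wildtype livers. The authors tested none of these 3 members. Of the muscle and testis markers listed, 3 of 4 in each set were at 0 in both groups, and the others did not exceed 0.225 FPKM.

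The 3 tested paralogs were not all on the side of the other members. Rps27l, a target of p53 in human cells, was abundant at 366 FPKM in knockout livers and 392 FPKM in wildtype livers (-0.10 ± 0.22). Rpl22l1 was at 46.8 FPKM in knockout and 52.0 FPKM in wildtype livers (-0.15 ± 0.27), while Rpl22, the RNA-binding protein that it can replace, was at 52.6 FPKM in knockout and 48.3 FPKM in wildtype livers (0.12 ± 0.22). Rpl7l1, which acts in ribosome assembly, was at 28.5 FPKM in knockout and 27.4 FPKM in wildtype livers (0.06 ± 0.22), far below Rpl7 at 339 FPKM in knockout and 315 FPKM in wildtype livers (0.11 ± 0.23). The differences between partners were not tested.

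Of the tested members, 5 had an SE over 1, and their ratios say little. Rps27 was at 53.5 FPKM in knockout livers and 3.34 FPKM in wildtype livers, a log2 ratio of 4.003 with an SE of 10.2. Rps15 was at 859 FPKM in knockout and 774 FPKM in wildtype livers (0.15 ± 1.32), Rpl26 at 27.6 FPKM in knockout and 26.1 FPKM in wildtype livers (0.08 ± 1.41), Rpl30 at 20.2 FPKM in knockout and 22.8 FPKM in wildtype livers (-0.17 ± 1.10), and Rpl34 at 12.5 FPKM in knockout and 12.0 FPKM in wildtype livers (0.06 ± 1.10). Rpl34, Rpl30, Rpl26 and Rps15a (15.7 FPKM in knockout and 13.3 FPKM in wildtype livers, 0.24 ± 0.22) were also among the least abundant members. The pseudogene row Rpl34-ps1 stood at 483 FPKM in knockout and 433 FPKM in wildtype livers, far above Rpl34 itself, and how reads that map to several places were handled is not stated in the sources used here. Levels of members with near-identical copies are therefore uncertain one by one.

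The members with the highest ratios were mostly short and abundant. A ratio over 0.3 was seen in 12 tested members, of which 9 have a median transcript of at most 600 nt in GENCODE M21, a length shared by 27 of the 79. A further 61 had ratios between 0 and 0.3, and the 6 below 0 included Rpl3, Rpl14, Rpl22l1, Rpl30 and Rps27l. The 6 members of at most 400 nt had a median log2 ratio of 0.42, against -0.02 for 17 other tested genes of that length. Rps27, whose ratio has an SE of 10.2, is counted in the 12, the 9 and these 6, and it is not among the abundant members. From 400 to 600 nt the medians were 0.15 for 21 members and 0.06 for 351 other genes. From 600 to 800 nt they were 0.20 for 22 members and 0.06 for 819 other genes, so the members' median did not fall evenly with length. Longer members had medians of 0.13 (800 to 1000 nt, 15 members), 0.11 (1000 to 1500 nt, 11 members) and 0.14 (above 1500 nt, 4 members). The medians of other genes in these classes were 0.05 (771 genes), 0.04 (1545 genes) and -0.03 (6907 genes). Rps20 is in the last class at 3706 nt, though its deposited locus is 1128 bases wide. GENCODE lengths are therefore not always those of the deposited genes, and the class of Rps20 is unreliable. Across the 74 members with an SE of at most 1, Spearman's rho of the ratio was -0.29 with transcript length and 0.46 with level. Genes share libraries and the FPKM divides by length, so these are descriptions.

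**Figure D3:**
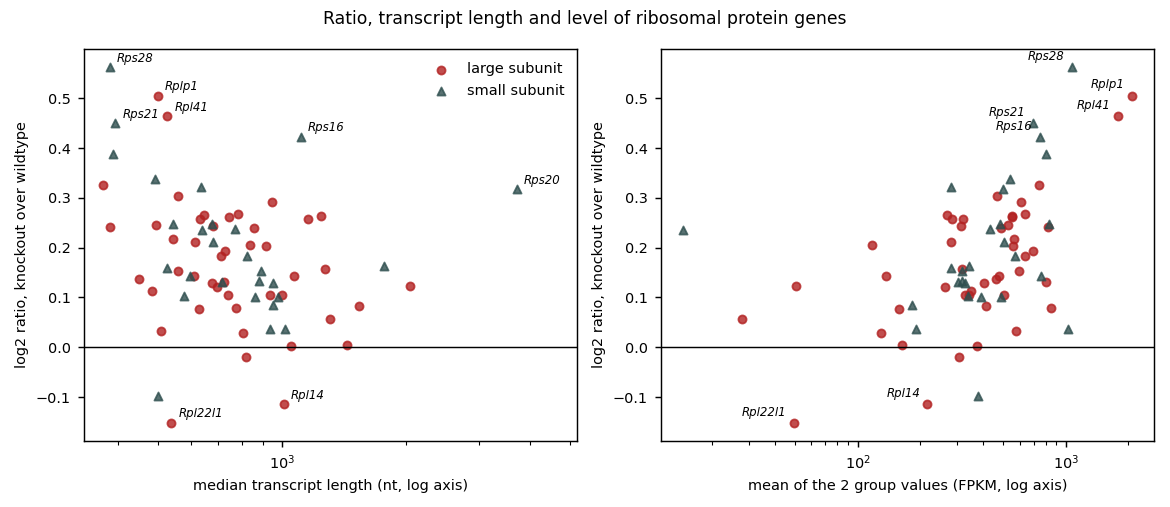
Log2 ratio of knockout over wildtype (vertical axis) against the median GENCODE transcript length (left, log axis) and the mean of the group values in FPKM (right, log axis) for members with an SE of at most 1; circles are large and triangles small subunit genes. Rps28, Rplp1 and Rpl41 lie at the top left of the first panel and the top right of the second.

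Other genes of like abundance are given beside the members. Between 300 and 1000 FPKM, 50 of 53 members lay above 0 with a median log2 ratio of 0.16, and 53.6% of 181 other genes did, with a median of 0.04. Above 1000 FPKM the medians were 0.48 for 4 members and 0.10 for 78 other genes. From 100 to 300 FPKM they were 0.13 for 14 members and 0.01 for 474 others. From 30 to 100 FPKM the order was the other way, with -0.01 for 2 members and 0.01 for 1295 others, and from 10 to 30 FPKM the medians were 0.07 for 6 members and -0.02 for 2365 others.

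Some ribosomal genes lie outside the naming rule. A list of 5 includes Fau, which encodes a ubiquitin-like protein fused to a ribosomal protein, Rps3a1, Rpl36al, and Gnb2l1 (now Rack1), a scaffold on the small subunit. Fau was at 829 FPKM in knockout and 724 FPKM in wildtype livers (0.20 ± 0.28), and Rpl36al at 692 FPKM in knockout and 596 FPKM in wildtype livers. All 5 were tested, all 5 had a higher value in knockout livers, and 0 passed, with a median of 0.20 (0.00, with 3 above 0, under the same sum). Rps4l, a further listed paralog that the table holds under its older symbol Rps4y2, also lies outside the rule.

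Other mRNAs with a TOP element had ratios near 0. Of 16 listed, all tested, 9 were above 0 and 7 below (0 and 16 under the same sum), with a median log2 ratio of 0.01, and 0 passed at q or at an unadjusted p under 0.05. Eef1a1, the elongation factor that brings tRNA to the ribosome, was at 2673 FPKM in knockout livers and 2701 FPKM in wildtype livers (-0.02 ± 0.43). Eef2, which moves the ribosome along the mRNA, was at 713 FPKM in knockout and 686 FPKM in wildtype livers (0.06 ± 0.35). Pabpc1, the poly(A)-binding protein, was at 105 FPKM in knockout and 120 FPKM in wildtype livers (-0.20 ± 0.23).

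The remaining genes of translation lay mostly on the lower side. Of 31 tested initiation factors 8 were above 0 and 23 below, with a median of -0.06. All 10 tested genes of the elongation and termination list were below 0, with a median of -0.21. The lowest was Gfm1, a mitochondrial elongation factor, at 24.05 FPKM in knockout livers and 30.95 FPKM in wildtype livers (-0.36 ± 0.22). As the list holds Gfm1 and the kinase Eef2k (-0.29 ± 0.25), its median is not one of cytosolic elongation factors alone. Eef1a1, Eef1b2, Eef1d, Eef1g and Eef2 are not in that list, being counted among the TOP mRNAs. Of these, Eef2 (0.06), Eef1d (0.01) and Eef1b2 (0.00) were not below 0, while Eef1a1 (-0.02) and Eef1g (-0.04) were. In neither list did any gene pass at q or at an unadjusted p under 0.05.

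Genes that build ribosomes mostly had lower values. Of 50 ribosome biogenesis genes, all tested, 14 were above 0 and 36 below, with a median log2 ratio of -0.13. None passed, and 2 had an unadjusted p under 0.05, both lower, where 2.47% of all tested genes were lower at that mark (5.29% in either direction). Nolc1, a nucleolar chaperone of small ribonucleoproteins, was at 7.01 FPKM in knockout livers and 12.4 FPKM in wildtype livers (-0.83 ± 0.29, q = 0.240 in the authors' deposited table). It passed as lower with the same sum in both groups, a scaling that raised the lower calls over all tested genes from 58 to 140. Rrp12 was at 2.28 FPKM in knockout and 3.62 FPKM in wildtype livers (-0.67 ± 0.28).

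RNA polymerase I transcribes the large ribosomal RNA precursor, and 15 of its subunits and factors had a median log2 ratio of -0.11 with 6 above 0 and 9 below. Polr1a, the largest subunit, was at 3.14 FPKM in knockout livers and 4.155 FPKM in wildtype livers (-0.40 ± 0.25). The 26 tested genes of the mTORC1 pathway had a median of -0.12 with 9 above and 17 below 0. As these genes include inhibitors, the median gives no direction for the pathway. Ddit4, an inhibitor of mTORC1, was the gene among them with an unadjusted p under 0.05, at 6.07 FPKM in knockout and 9.14 FPKM in wildtype livers (-0.59 ± 0.29, q = 0.847 in the authors' deposited table). Over all tested genes 5.29% had an unadjusted p under 0.05. Neither list held a call.

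The 76 proteins of the mitochondrial ribosome, which makes the few proteins encoded in mitochondria, had a median log2 ratio of 0.04 with 48 above 0 and 28 below (7 and 69 under the same sum). None passed at q or at an unadjusted p under 0.05. Mrpl52 had the smallest p, at 195.4 FPKM in knockout livers and 145.5 FPKM in wildtype livers (0.43 ± 0.23).

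**Figure D4:**
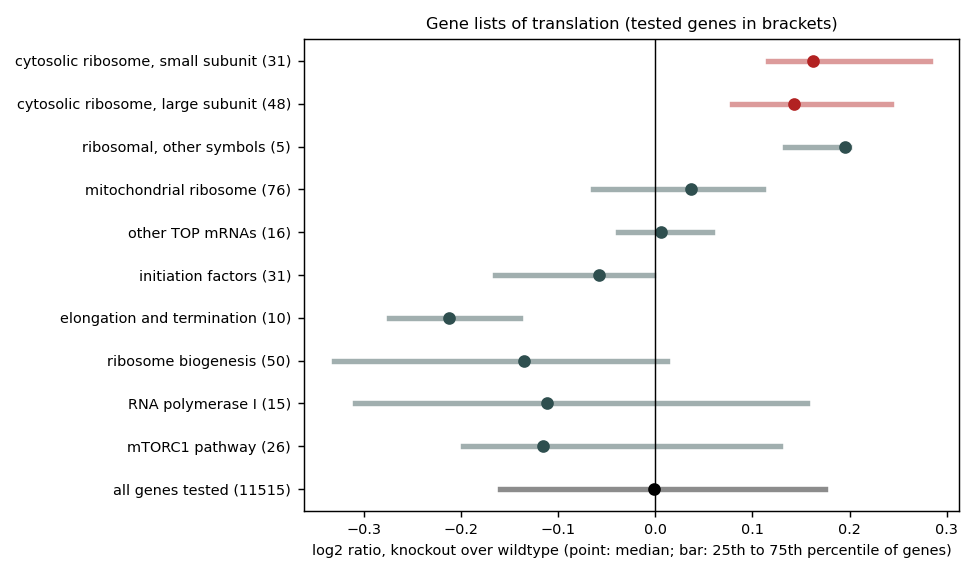
Median log2 ratio of knockout over wildtype (point) with the 25th to 75th percentile of genes (bar) for each list of translation genes and for all genes tested; the number of tested genes is in brackets. The small and large subunits of the cytosolic ribosome have medians of 0.16 and 0.14, and ribosome biogenesis has -0.13; all values shift by about -0.19 with the same sum in both groups.

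Markers of liver and other cells are given beside these values, and their part in them was not tested. The 10 hepatocyte markers, all tested with 0 called, summed to 57860 FPKM in knockout livers and 55530 FPKM in wildtype livers. Of them 4 were above 0 and 6 below, with a median log2 ratio of -0.08. The 10 intestinal markers summed to 185 FPKM in knockout and 184 FPKM in wildtype livers. Apoa4 (86.5 FPKM in knockout and 98.6 FPKM in wildtype livers), Fabp2 (42.9 and 54.7) and Tff3 (48.8 and 23.9) held most of each sum. Vil1, Krt20, Sis, Muc2, Cdx1 and Cdx2 were each under 1 FPKM in both groups. Of the 10 markers 6 were tested, with 3 above 0 and 3 below, and the highest was Tff3 (1.03 ± 0.31, q = 0.0775 in the authors' deposited table). Of the 8 neutrophil markers 4 rose (S100a8, S100a9, Ngp and Ltf), all 8 lay above 0, and their sum was 108 FPKM in knockout and 5.50 FPKM in wildtype livers. Of the 6 Kupffer cell markers 2 rose (Marco and C1qa), and their sum was 298 FPKM in knockout and 192 FPKM in wildtype livers. B and plasma cell markers summed to 2.08 FPKM in knockout and 2.72 FPKM in wildtype livers, T and NK cell markers to 2.61 FPKM in knockout and 2.43 FPKM in wildtype livers, and red cell markers to 150 FPKM in knockout and 114 FPKM in wildtype livers, with none called. Of the 5 red cell markers 4 were above 0 and 1 below. An unadjusted p under 0.05 was seen for 2 of them, Hbb-bt (1.00 ± 0.30) and Hba-a2 (0.89 ± 0.31). The summed FPKM of all listed genes was 646306 in knockout livers and 564749 in wildtype livers.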

How the data were processed

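Per the labels' protocols, frozen tissue was taken up in Trizol and TruSeq libraries were made from 1 ug of total RNA; reads were single-end of 50 nt. Per the submitters' processing notes, Bowtie2 and mm10 were used; which program wrote the table is not stated. The authors deposited a single value per group from its 3 libraries, read here as FPKM (fragments scaled by transcript length and depth) because the columns carry Cuffdiff's names. Per the file headers the deposited log2 ratio has wildtype on top, so ratios were computed anew from the values with knockout on top (largest difference 1.29e-05). The authors' test statistic, a deposited score, was used as a standard normal z, and SE is the ratio divided by it. The deposited q-value equals the Benjamini-Hochberg adjustment of the deposited p-value over 11515 genes within 1.99e-06. No value per library was used, so the planned limma fit was replaced by the authors' test, as the plan provided; no source says more about the replicates than their animal numbers. The table holds 0 columns of other series.

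Values were analysed with Python 3.11.15, pandas 2.3.3 and scipy 1.17.1, and the recalculation of p and q under other scalings was tested on simulated data. Coordinates are those of the deposited table with 1 added to each start. Named members are those with an unadjusted p under 0.05, the 5 highest and 5 lowest in ratio and in level, the paralogs, the stalk, Rpl5, Rpl11, Rps6, Rps27a, Rpsa, Rpl41 and the untested ones. A further 19 were added after their values were seen, and a role is not given above for each. Rps12, Rps16, Rps19, Rps20, Rps29 and Rpl38 are among the added ones and have ratios over 0.3. A few genes that count in the totals are not reported here by name or drawn. Members and lists were chosen with earlier results of these data known. Alternatives were other scalings, pseudocounts, filters, thresholds and denominators.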

Additional observations from a re-analysis of the deposited data

How the results depend on the processing

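Scaling both groups to the same sum of listed FPKM turned the median log2 ratio of the members to -0.0417, of the large subunit to -0.0514 and of the small subunit to -0.0319. It likewise turned named members, to -0.0641 (Rpl10), -0.0003 (Rpl11), -0.0724 (Rpl22), -0.0738 (Rpl23), -0.1163 (Rpl26), -0.1154 (Rpl28), -0.1314 (Rpl34), -0.0507 (Rpl39), -0.1115 (Rpl4), -0.19 (Rpl5), -0.0888 (Rpl7), -0.1384 (Rpl7l1), -0.058 (Rplp2), -0.0518 (Rps14), -0.0439 (Rps15), -0.091 (Rps25), -0.0635 (Rps27a), -0.1586 (Rps2), -0.1101 (Rps3), -0.0624 (Rps6) and -0.0319 (Rpsa). Quantile normalization turned Rpl23 to -0.026, Rpl28 to -0.0092, Rpl4 to -0.0116, Rpl5 to -0.0341, Rps14 to -0.0272 and Rps2 to -0.0384. The cause of these turns is the scaling itself, which subtracts about 0.19 from every ratio or moves it with its rank. The 2 members past an unadjusted p under 0.05 stand against 0 at q, and 1 ribosome biogenesis gene was called lower with the same sum, against 0 as deposited. Over all tested genes the same sum raised the lower calls from 58 to 140. All other alternatives run on the members' medians (pseudocounts of 1 and 0.5, no filter, a minimum of 1 FPKM, no paralogs, summed values, upper quartile scaling) kept them above 0, between 0.14 and 0.23, and quantile normalization gave 0.06 to 0.07. At q under 0.10, 0 members were called. Leaving out members with an SE over 1 (median 0.16) and adding the 5 genes of other names (0.16) were chosen after seeing the data. No paired analysis was possible because the table holds 1 value per group, and no replicate could be left out for the same reason. Values per mouse and read totals were not used here, and the smallest absolute log2 ratio of a gene called as deposited was 0.7757.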

Other observations

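Pseudogenes of ribosomal proteins that the rule leaves out had rows of their own. Rpl34-ps1 was at 483 FPKM in knockout livers and 433 FPKM in wildtype livers (log2 ratio 0.16 ± 0.23 SE), close to the median of the tested members. The others were low: Rps15a-ps4 was at 4.21 FPKM in knockout and 3.38 FPKM in wildtype livers, Rps19-ps3 at 0.901 FPKM in knockout and 1.15 FPKM in wildtype livers, Rplp2-ps1 at 0.645 FPKM in knockout and 0.145 FPKM in wildtype livers, Rps15a-ps6 at 0.222 FPKM in knockout and 0.297 FPKM in wildtype livers, and Rpl31-ps12 was listed at 0 in knockout livers and at 0.157 FPKM in wildtype livers.

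For 6 members, among them Rps15, Rpl38, Rpl31, Rpl5 and Rps27a, the deposited locus was over 5 times as wide as the RefSeq gene of GRCm38.p6. For Rpl5 it was 86550 bases and for Rps27a 32511 bases, which limits the values given for them above. Rps15, whose deposited locus is also that of the neutrophil gene Elane, had a locus of 672333 bases, Rpl38 of 413361 bases and Rpl31 of 110897 bases. Rps15, Rpl38 and Rpl31 had log2 ratios of 0.15 ± 1.32, 0.33 ± 0.25 and 0.08 ± 0.23.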
